A study of Mus musculus with 20 samples.

Results

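The genes described here are 34 genes of mitochondrial fatty acid oxidation and ketone body synthesis, chosen by symbol. All 34 were among the 20914 genes of the count table and among the 13670 genes with enough reads to be tested. They were measured by RNA-seq of liver tissue (left lateral lobe) from 20 male mice, 8 weeks old, of the strain labelled LiB12cKO. The 10 knockout mice (KO) had the genotype HSD17B12lox/lox;Alb-CreCre/WT, and the 10 wild-type mice (WT) had HSD17B12lox/lox;Alb-CreWT/WT. Both groups therefore carry the floxed Hsd17b12 gene, which encodes a ketoacyl-CoA reductase that takes part in the elongation of very long fatty acids, and Cre is driven by the hepatocyte promoter of albumin. Each KO mouse carries Cre and no WT mouse does, so effects of Cre and of the loss of Hsd17b12 cannot be told apart.

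Fatty acids enter mitochondria as carnitine esters and are then shortened by repeated rounds of 4 reactions, in which acyl-CoA dehydrogenases act first and a thiolase releases acetyl-CoA last. The electrons from the dehydrogenases pass through the electron transfer flavoprotein (ETF) to the respiratory chain. Liver turns much of the acetyl-CoA into ketone bodies during fasting, and many genes of the pathway are known targets of the fatty acid receptor PPAR-alpha.

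Between 16693195 and 24895938 fragments were assigned to genes in the KO mice and between 19676907 and 29124124 in the WT mice. Levels are given as CPM, the count relative to the library total, after scaling each library by its trimmed mean of M values (TMM) factor, which averaged 1.18 ± 0.0579 in KO and 0.851 ± 0.0600 in WT (SD over 10 mice per group). The all-gene median log2 fold change was -0.025 with TMM factors, and 0.47 more when libraries were scaled by size alone, so a log2 fold change under library size alone stands beside each member whose direction turns on it. Hsd17b12 had 44.2, 47.9 and 51.3 CPM (lowest, median and highest) in KO and 123, 154 and 177 CPM in WT, and every KO mouse lay below every WT mouse (log2 fold change -1.66 ± 0.064 SE, edgeR quasi-likelihood adjusted p = 3.85e-14; -1.19 with library size alone). The factor of KO_391 (1.05) was the lowest in KO and that of WT_441 (0.974) the highest in WT, so these 2 libraries lay nearest to the other genotype, and multi-mapping fragments were 8.46% in KO_391 and 3.38% in WT_441. Without both mice, 12 members were called higher and 10 lower, against 13 and 10 with them. Hepatocyte markers were lower for 8 of 8 genes, and their summed level ranged from 46186 to 61760 CPM in KO and from 77082 to 109246 CPM in WT; under library size alone 5 of the 8 were called lower. Of the markers of recruited macrophages, 7 of 7 were higher, at 53.4 to 199 CPM in KO and 20.7 to 47.0 CPM in WT. Kupffer cell markers were higher for 4 of 6 genes, at 192 to 401 CPM in KO and 98.7 to 216 CPM in WT, and stellate cell markers for 5 of 6, at 213 to 366 CPM in KO and 118 to 235 CPM in WT. None of these markers was at 0 in all mice. In these bulk samples, fewer hepatocytes and less of an RNA per hepatocyte cannot be told apart, and the part of these marker differences in the results was not tested.

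Within the pathway, the genes moved in different directions. Pdk4, a kinase that switches off pyruvate dehydrogenase, rose by a log2 fold change of 2.72, and Crat, carnitine acetyltransferase, by 1.42. The dehydrogenases of long- and medium-chain acyl-CoA rose by less than 1.5-fold. Acadsb, the short/branched-chain acyl-CoA dehydrogenase, fell by 1.02 on the log2 scale, and also fell with library size alone. Both ETF subunit genes and the thiolase gene Acat1 were lower in every KO mouse than in any WT mouse with TMM factors, and their log2 fold changes shrank to between -0.12 and 0.0067 with library size alone. With edgeR's quasi-likelihood test, 13 of the 34 genes were higher in KO and 10 lower at an adjusted p under 0.05, and 11 were not called. Of all tested genes 59.2% were called, 28.2% higher and 31.0% lower, while 67.6% of the members were called. The share called is thus near that of the transcriptome.

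Most of the called differences were small. Of the 23 called members, 18 differed by less than 1.5-fold, and the share of such differences among all called genes was not computed. With at least a 2-fold difference, 4 of the 34 members (Pdk4, Crat, Acad12 and Acadsb) were called, against 11.8% of all tested genes. The members were thus near the background in this count. KO and WT values did not overlap for 5 members, 14.7% of them, against 13.6% of all tested genes. Acadl was the gene with all KO mice above all WT mice (7.1% of all genes), and Acadsb, Etfa, Etfb and Acat1 were the 4 with all KO mice below (6.47% of all genes). The members had a median log2 fold change of 0.016 (0.49 with library size alone), against -0.025 (0.44) for all tested genes. With library size alone 25 members were called higher and 1 lower, against 68.4% and 6.71% of all genes (75.1% in either direction), and 13 members changed sign.

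**Figure D1:**
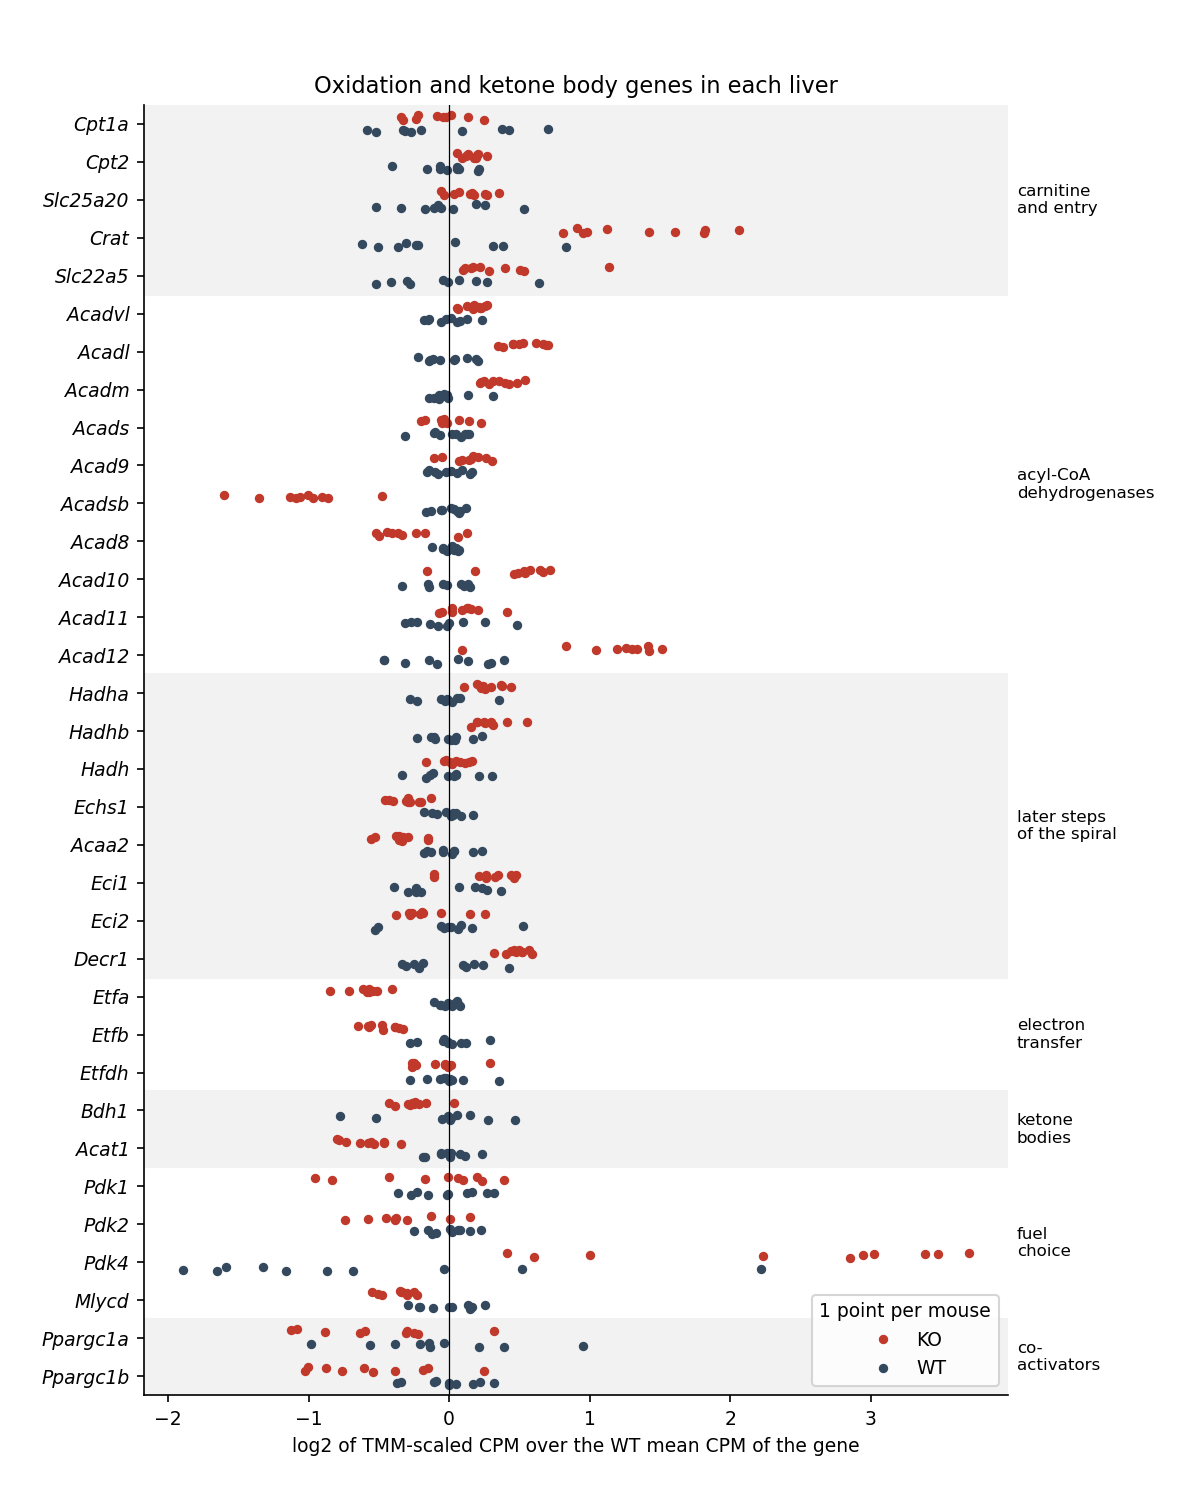
Each point is the TMM-scaled CPM of a gene in a mouse, on a log2 scale relative to the mean CPM of the gene in WT, with KO above WT in each line and the genes grouped by role. Acadl in KO lies wholly above WT, and Acadsb, Etfa, Etfb and Acat1 in KO lie wholly below WT, while Pdk4 spreads from 11.5 to 112 CPM in KO and from 2.33 to 40.1 CPM in WT.

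Among the genes of carnitine supply and mitochondrial entry, 3 of 5 were called higher in KO and the other 2 were not called. With library size alone all 5 were called higher. Of all tested genes 28.2% were called higher with TMM factors and 68.4% with library size alone. Crat encodes the enzyme that moves acetyl groups between CoA and carnitine. Its level was 58.3, 80.6 and 139 CPM in KO (lowest, median and highest of 10), against 21.6, 28.3 and 59.0 CPM in WT. The 2 ranges overlapped in a narrow strip, with 9 of 10 KO mice above the highest WT mouse. Crat was 2.67-fold higher in KO (log2 fold change 1.42 ± 0.20 SE; edgeR quasi-likelihood adjusted p = 4.57e-06). Exons of Crat (mm10 chromosome 2, 30400476 to 30415748, minus strand) share 52 bases with Dolpp1, and the sources used here do not say whether the counting used strand.

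The other entry genes differed less. Slc22a5, the plasma membrane carnitine transporter, had 29.6, 32.9 and 60.7 CPM in KO and 19.3, 27.1 and 43.1 CPM in WT, with a log2 fold change of 0.40 ± 0.14 (adjusted p = 0.0225, edgeR quasi-likelihood). Cpt2, the inner membrane carnitine palmitoyltransferase, had 175, 188 and 203 CPM in KO and 127, 171 and 196 CPM in WT. All 10 KO mice lay above the WT median of Cpt2, but the ranges overlapped widely. Its log2 fold change was 0.16 ± 0.063 (edgeR adjusted p = 0.0337), and the call was lost on leaving out WT_389 (adjusted p = 0.0662), WT_406 (0.0554), WT_407 (0.0512), WT_415 (0.0552) or WT_441 (0.0557).

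Cpt1a, the outer membrane palmitoyltransferase that limits the entry of long-chain fatty acids, was not called. It had 308, 372.4 and 462 CPM in KO and 260, 331 and 633 CPM in WT, and the KO values lay inside the WT range. The log2 fold change of Cpt1a was -0.077 ± 0.14 (edgeR adjusted p = 0.661) with TMM factors, 0.38 with library size alone (adjusted p = 0.0276) and 0.025 without WT_429, the highest. Within a library, the RPKM of Cpt1a was 1.07 ± 0.128 times that of Cpt2 in KO and 1.26 ± 0.372 times in WT (SD over 10 mice per group; 2-sided permutation test, p = 0.143, adjusted over 2 ratios 0.143). Slc25a20, the carrier that exchanges acylcarnitine for carnitine, had 121, 140 and 161 CPM in KO and 87.7, 120 and 182 CPM in WT. Its log2 fold change of 0.14 ± 0.099 was not called (edgeR adjusted p = 0.218), but was called with library size alone (0.62, adjusted p = 2.49e-06) and without WT_427 (0.21, adjusted p = 0.0370).

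Of the 10 acyl-CoA dehydrogenase genes, which catalyse the first step of each round for acyl chains of different length or branching, 5 were called higher and 2 lower. With library size alone 9 were called higher and 1 lower. The shares of all tested genes were 28.2% higher and 31.0% lower with TMM factors, and 68.4% and 6.71% with library size alone. Acadl (mm10 chromosome 1, 66830853 to 66863267, minus strand) encodes the long-chain enzyme and had 203, 228 and 259 CPM in KO, against 137, 158 and 184 CPM in WT. No KO mouse was as low as the highest WT mouse. The log2 fold change of Acadl was 0.54 ± 0.066 (edgeR adjusted p = 4.27e-07), and its exons share 504 bases with a gene that has no symbol. Acadm, the medium-chain enzyme, had 389.04, 420 and 484 CPM in KO, against 302, 324 and 413.98 CPM in WT, and 6 of 10 KO mice exceeded the highest WT mouse. It was 1.28-fold higher (log2 0.35 ± 0.062, edgeR adjusted p = 4.96e-05). Acadvl, the very-long-chain enzyme, had 482, 529 and 556 CPM in KO and 407.96, 461 and 545 CPM in WT. Its ranges overlapped and its log2 fold change was 0.18 ± 0.059 (edgeR adjusted p = 0.0116).

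Acads, the short-chain enzyme, had 149, 167 and 199 CPM in KO and 137, 174 and 188 CPM in WT. Its log2 fold change was -0.0065 ± 0.064 (edgeR adjusted p = 0.938), and it was 0.46 and called higher with library size alone (adjusted p = 1.73e-07). Acad9, also known as an assembly factor of respiratory complex I, had 32.8, 39.1 and 43.5 CPM in KO and 31.7, 35.2 and 39.5 CPM in WT. With an adjusted p of 0.0580 and a log2 fold change of 0.13 ± 0.058 it was not called by edgeR. It was called higher with library size alone (0.60, edgeR adjusted p = 3.28e-09), with DESeq2 (adjusted p = 0.0274), and with edgeR on leaving out KO_372, KO_414, KO_416, KO_425, KO_434, KO_435, KO_453, WT_407 or WT_409 (adjusted p = 0.00756 to 0.0424).

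The 2 dehydrogenases called lower are those of branched-chain substrates from amino acid breakdown. Acadsb (mm10 chromosome 7, 131410601 to 131446211, plus strand) had 65.7, 97.5 and 143 CPM in KO, against 177, 202 and 216 CPM in WT. The groups did not overlap, and the KO mice were the more variable, with a coefficient of variation of 20.8% in KO and 6.44% in WT. The log2 fold change was -1.02 ± 0.095 (edgeR adjusted p = 9.82e-09), and Acadsb was the member also called lower with library size alone (-0.56, adjusted p = 3.93e-06). Acad8, isobutyryl-CoA dehydrogenase, had 42.7, 48.1 and 66.9 CPM in KO and 56.2, 61.4 and 64.1 CPM in WT. Although 8 of 10 KO mice lay below the lowest WT mouse, 1 lay above the highest. Acad8 fell by 0.26 on the log2 scale with TMM factors (SE 0.074, edgeR adjusted p = 0.00433), but was called higher with library size alone (0.20, adjusted p = 0.00843).

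Acad12 and Acad10 are neighbours on the minus strand of mm10 chromosome 5, at 121598281 to 121618938 and 121621029 to 121660510. Acad12 had 8.02, 18.3 and 21.4 CPM in KO and 5.44, 7.46 and 9.86 CPM in WT, with 9 of 10 KO mice above the highest WT mouse. Its log2 fold change was 1.19 ± 0.15 (edgeR adjusted p = 6.70e-07). Acad10 had 25.5, 41.3 and 46.9 CPM in KO and 22.6, 29.2 and 31.5 CPM in WT, again with 9 of 10 KO mice above all WT mice (log2 0.49 ± 0.091, edgeR adjusted p = 9.03e-05). In both genes the lowest KO mouse was KO_416, at 8.02 and 25.5 CPM, and the next lowest was KO_414, at 13.4 and 32.3 CPM. Whether reads are shared between the 2 related genes was not tested. Acad11 had 268, 304 and 375 CPM in KO and 226, 272 and 393 CPM in WT and was not called with TMM factors (log2 0.11 ± 0.090, edgeR adjusted p = 0.290), but was called higher with library size alone (0.58, adjusted p = 2.97e-06). Its exons share 62 bases with Ackr4.

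Per length, on the deposited RPKM scale (CPM per kilobase of gene length, scaled by TMM factors of all genes in the count table), Acadvl and Acadm were the most abundant dehydrogenase RNAs in both groups. Acadvl averaged 243 ± 12.3 RPKM in KO and 214 ± 20.7 in WT, and Acadm 231 ± 17.7 in KO and 181 ± 18.5 in WT (SD over 10 mice per group). In KO the order continued with Acadl, Acads and Acad11, at 123 ± 10.6, 92.4 ± 8.71 and 90.9 ± 9.52 RPKM. In WT it continued with Acads, Acadl and Acad11, at 92.5 ± 9.13, 84.1 ± 9.02 and 83.9 ± 15.7 RPKM, and these 3 lay within each other's spread. Acadsb followed at 29.4 ± 6.21 RPKM in KO and 59.3 ± 3.97 RPKM in WT, and Acad8, Acad10, Acad9 and Acad12 lay between 7.22 and 17.8 RPKM in KO and between 3.16 and 21.3 RPKM in WT. As a share of the summed RPKM of the 10 genes, which does not depend on how a library is scaled, Acadsb made up 3.42% ± 0.584 in KO and 7.89% ± 0.687 in WT. The shares did not overlap, at 2.38 to 4.57% in KO and 6.77 to 8.99% in WT. Acadvl kept nearly equal shares, 28.4% ± 1.17 in KO and 28.3% ± 1.07 in WT, while Acadm had 27.0% ± 1.28 in KO and 23.9% ± 0.974 in WT and Acadl 14.4% ± 1.35 in KO and 11.1% ± 0.943 in WT.

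**Figure D2:**
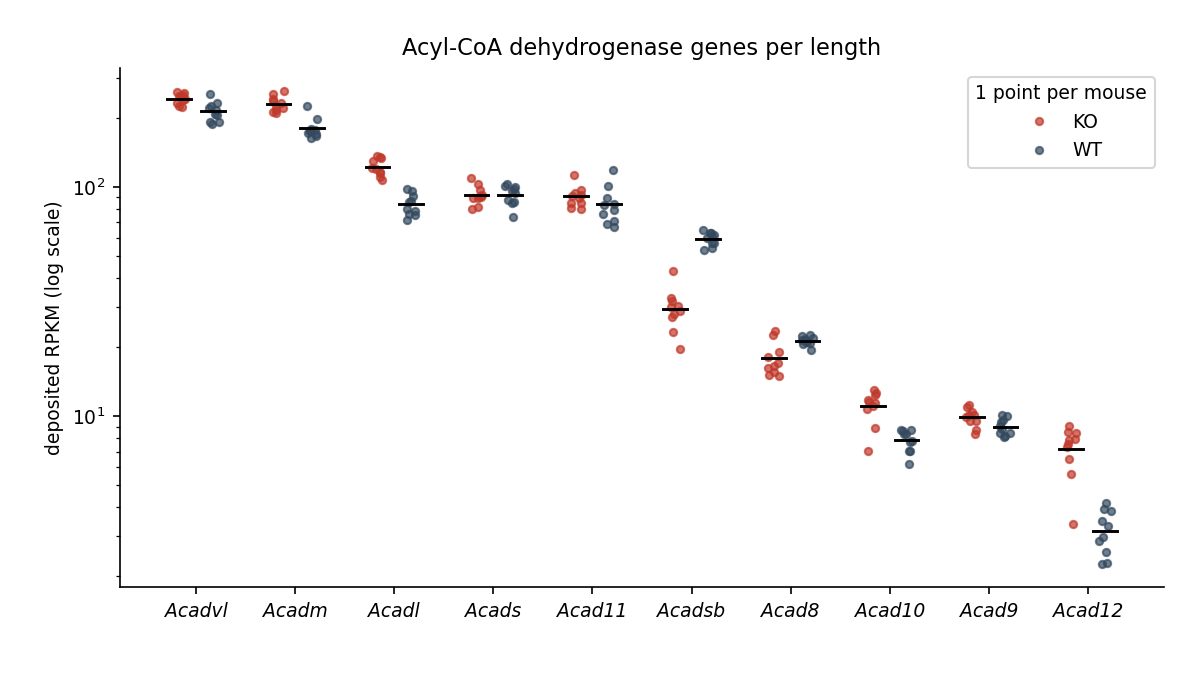
Deposited RPKM of the 10 acyl-CoA dehydrogenase genes on a log axis, 1 point per mouse, with KO left of WT and a bar at each mean, ordered by the KO mean. Acadl in KO is above all WT mice and Acadsb in KO is below all WT mice, and Acad12 is the least abundant in both groups, at 7.22 RPKM in KO and 3.16 RPKM in WT.

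The later steps of the spiral include the trifunctional protein, whose alpha and beta subunits are encoded by Hadha and Hadhb. Both were higher in KO. Hadha had 393, 433 and 494 CPM in KO and 301, 361 and 467 CPM in WT (log2 0.28 ± 0.069, edgeR adjusted p = 0.00155), and its exons share 77 bases with Garem2. Hadhb had 73.0, 79.3 and 95.9 CPM in KO and 55.8, 65.7 and 76.9 CPM in WT, with 7 of 10 KO mice above the highest WT mouse (log2 0.30 ± 0.060, edgeR adjusted p = 2.13e-04). The ratio of Hadha to Hadhb RPKM was 2.79 ± 0.157 in KO and 2.83 ± 0.268 in WT, so the 2 subunit RNAs kept their proportion within the spread between mice.

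Hadha and Hadhb lie head to head on mm10 chromosome 5, Hadha on the minus strand at 30118304 to 30154980 and Hadhb on the plus strand at 30155322 to 30184583. Their RefSeq starts on GRCm38.p6 are at 30154980 and 30155253, with 272 bases between them. The 250 bases upstream of Hadha therefore form most of the interval upstream of both genes, and are shown as the sequence that this pair of members, which both rose, shares (RefSeq, GRCm38.p6, chr5:30154981-30155230, minus strand, 5′ to 3′).
Hadha and Hadhb upstream: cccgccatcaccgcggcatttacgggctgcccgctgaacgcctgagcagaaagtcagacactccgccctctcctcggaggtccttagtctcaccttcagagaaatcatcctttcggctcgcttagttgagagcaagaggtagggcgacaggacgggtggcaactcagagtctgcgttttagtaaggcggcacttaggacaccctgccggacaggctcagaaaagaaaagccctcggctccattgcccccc

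Decr1, the dienoyl-CoA reductase needed for polyunsaturated chains, had 203, 229 and 246 CPM in KO and 129, 159 and 220 CPM in WT. With 8 of 10 KO mice above the highest WT mouse, it rose by 0.48 ± 0.087 on the log2 scale (edgeR adjusted p = 5.95e-05). Eci1, an enoyl-CoA isomerase for unsaturated chains, had 136, 179 and 203 CPM in KO and 112, 140 and 189 CPM in WT. Its log2 fold change of 0.27 ± 0.10 was called (edgeR adjusted p = 0.0281), and the call was lost without WT_389 (adjusted p = 0.0553), WT_390 (0.0544), WT_415 (0.0509), WT_429 (0.0532) or WT_441 (0.0540). Eci2, a second such isomerase, had 177, 200 and 275 CPM in KO and 160, 231 and 331 CPM in WT, and was not called with TMM factors (-0.13, edgeR adjusted p = 0.312) but was called higher with library size alone (0.35, adjusted p = 0.00262).

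Echs1, the short-chain enoyl-CoA hydratase, and Acaa2, the mitochondrial thiolase of the last step, went the other way with TMM factors. Echs1 had 169, 189 and 212 CPM in KO and 205, 235 and 261 CPM in WT, and 9 of 10 KO mice lay below the lowest WT mouse. It fell by 0.30 on the log2 scale with TMM factors (SE 0.054, edgeR adjusted p = 6.61e-05), against 0.17 and a call higher with library size alone (adjusted p = 0.0204). Acaa2 had 583, 675 and 771 CPM in KO and 756, 849 and 1006 CPM in WT. Its log2 fold change was -0.34 ± 0.069 with TMM factors (edgeR adjusted p = 2.36e-04) and 0.14 with library size alone (adjusted p = 0.0430). Hadh, the hydroxyacyl-CoA dehydrogenase of shorter chains, had 234, 269 and 293 CPM in KO and 208, 265 and 324 CPM in WT, with a log2 fold change of 0.038 ± 0.069 (edgeR adjusted p = 0.653) and 0.51 with library size alone (adjusted p = 6.52e-07). A ratio within a library is free of the scaling, and the RPKM of Hadha over Acaa2 was 0.228 to 0.318 in KO and 0.121 to 0.193 in WT. This ratio was chosen after its values were seen and carries no test.

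With TMM factors 2 of the 3 electron transfer genes were called lower, and with library size alone neither of these was. Of all tested genes 31.0% were called lower with TMM factors and 6.71% with library size alone. Etfa and Etfb encode the 2 subunits of ETF, and Etfdh the oxidoreductase that passes its electrons to ubiquinone. Etfa (mm10 chromosome 9, 55454436 to 55512243, minus strand) had 206, 250 and 280 CPM in KO, against 345, 374 and 392.2 CPM in WT. There was a clear gap between the highest KO mouse and the lowest WT mouse. The log2 fold change of Etfa was -0.59 ± 0.052 with TMM factors (edgeR adjusted p = 4.59e-09) and -0.12 with library size alone, where it was not called (adjusted p = 0.0566). Etfb had 218, 247 and 273 CPM in KO and 283, 341 and 420 CPM in WT, also with no overlap. It fell by 0.47 on the log2 scale with TMM factors (SE 0.066, edgeR adjusted p = 2.99e-06), against 0.0067 with library size alone (adjusted p = 0.920). Etfdh had 197, 227 and 290 CPM in KO and 195, 235 and 303 CPM in WT, and was not called with TMM factors (-0.078 ± 0.077, edgeR adjusted p = 0.396), but was called higher with library size alone (0.39, adjusted p = 7.32e-05).

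Ratios of the RPKM of a gene to that of another in the same library do not depend on the scaling. The RPKM of Acadl over that of Etfa was 0.729 ± 0.0831 in KO, from 0.576 to 0.835, and 0.332 ± 0.0336 in WT, from 0.289 to 0.381. Acadm over Acadsb was 8.10 ± 1.44 in KO, from 5.90 to 11.2, and 3.05 ± 0.284 in WT, from 2.66 to 3.69 (SD over 10 mice per group). Neither ratio overlapped between the groups, which for Acadl over Etfa follows from both genes having no overlap, in opposite directions. Etfa over Etfb did overlap, at 0.557 ± 0.0340 in KO and 0.610 ± 0.0711 in WT. These pairs were chosen after their values were seen, so the ratios are descriptions without a test.

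Of the ketone body members, Acat1 makes and cleaves acetoacetyl-CoA in mitochondria and Bdh1 interconverts acetoacetate and beta-hydroxybutyrate. Acat1 (mm10 chromosome 9, 53580522 to 53610350, minus strand) had 251, 294 and 342 CPM in KO, against 382, 433 and 512 CPM in WT. The groups did not overlap. Acat1 had a log2 fold change of -0.58 ± 0.067 with TMM factors (edgeR adjusted p = 1.99e-07) and of -0.11 with library size alone, where it was not called (adjusted p = 0.126). Bdh1 had 166, 187 and 230 CPM in KO and 131, 225 and 309 CPM in WT, and its WT mice varied more, with a coefficient of variation of 9.13% in KO and 22.9% in WT. It was not called (-0.24 ± 0.11, edgeR adjusted p = 0.0632; 0.23 with library size alone), but was called lower without WT_389 (-0.31, adjusted p = 0.00577) or WT_390 (-0.29, adjusted p = 0.0213).

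The genes that set the choice between fatty acid and glucose oxidation include the pyruvate dehydrogenase kinases Pdk1, Pdk2 and Pdk4, which inactivate pyruvate dehydrogenase and so limit acetyl-CoA from glucose. Pdk4 (mm10 chromosome 6, 5483351 to 5496278, minus strand) is the isoform known to be induced by fasting. Its level was 11.5, 64.4 and 112 CPM in KO, against 2.33, 4.30 and 40.1 CPM in WT. Of the KO mice, 7 of 10 exceeded the highest WT mouse, and KO_391, KO_402 and KO_453 stood low at 11.5, 13.1 and 17.3 CPM. In WT the mouse WT_389 stood alone at 40.1 CPM, and the next highest, WT_441, had 12.3 CPM. The log2 fold change of Pdk4 was 2.72 ± 0.57, or 6.58-fold (edgeR adjusted p = 4.70e-04), and 3.48 without WT_389 (adjusted p = 8.07e-06). The 4 KO mice lowest in Pdk4, with KO_435 at 40.5 CPM as the fourth, were also the 4 lowest in Crat, at 58.3 to 65.4 CPM.

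Pdk2, the main isoform in liver, had 86.4, 111 and 160 CPM in KO and 121, 146 and 169 CPM in WT, with 7 of 10 KO mice below the lowest WT mouse. It fell by 0.30 on the log2 scale with TMM factors (SE 0.092, edgeR adjusted p = 0.00874), against 0.16 with library size alone (adjusted p = 0.101). Pdk1 had 25.2, 49.7 and 63.9 CPM in KO and 37.8, 48.3 and 60.6 CPM in WT and was not called (-0.080 ± 0.15, edgeR adjusted p = 0.656), with a log2 fold change of 0.39 with library size alone (adjusted p = 0.0154), 0.011 without KO_414 and 0.019 without KO_416. The 2 lowest KO mice in Pdk1 were KO_416 and KO_414, at 25.2 and 27.4 CPM, as in Acad10 and Acad12.

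As a share of the summed RPKM of the 3 kinases, Pdk4 made up 21.6% ± 13.2 in KO and 3.27% ± 4.27 in WT (SD over 10 mice per group), a difference of 18.3 percentage points (2-sided permutation test with 100000 resamples, p = 0.00072, adjusted over 2 comparisons 0.00144). Pdk2 made up 66.9% ± 11.8 in KO and 84.1% ± 3.82 in WT, and Pdk1 11.5% ± 2.89 in KO and 12.6% ± 2.66 in WT. The summed RPKM of the 3 genes, with TMM factors, was 77.7 ± 6.03 in KO and 75.6 ± 5.54 in WT, a difference smaller than the spread between mice. Unlike the shares, this sum depends on the scaling, and it was not computed with library size alone. There the log2 fold changes were 3.20 for Pdk4, 0.16 for Pdk2 and 0.39 for Pdk1. Pdk2 had the largest share in all 20 mice.

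**Figure D3:**
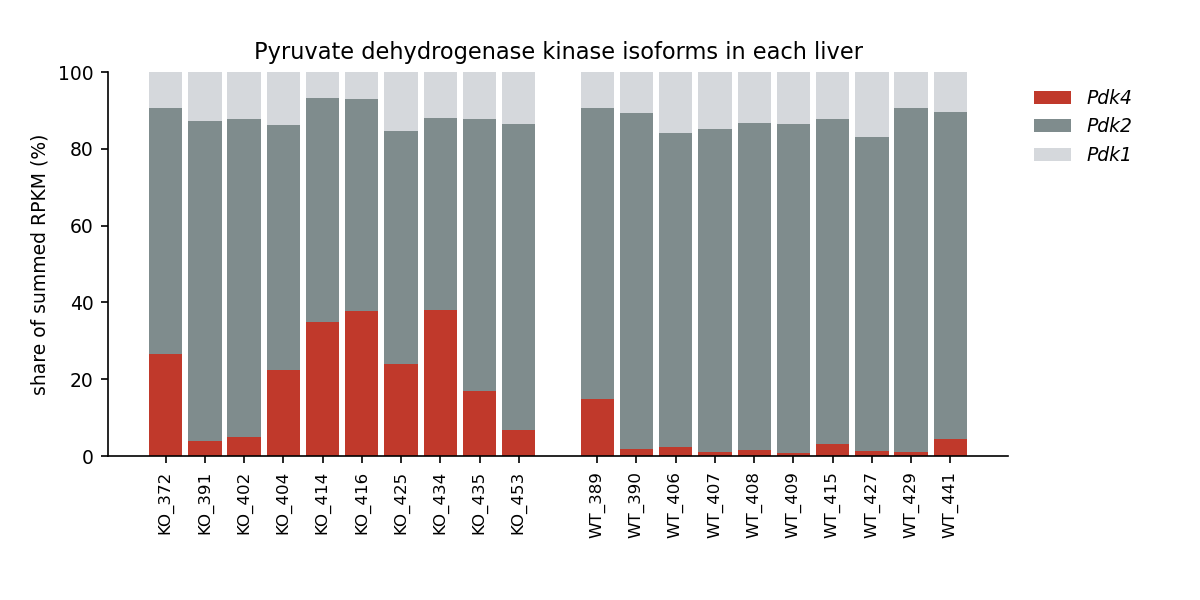
Stacked bars give the share of Pdk4, Pdk2 and Pdk1 in their summed RPKM for each mouse, with the 10 KO mice left of the 10 WT mice. The Pdk4 share ranges from 3.91 to 37.9% in KO and from 0.857 to 14.97% in WT, and the highest WT mouse is WT_389.

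The 120 bases upstream of Pdk4, the member with the largest fold change, are shown for reference (RefSeq, GRCm38.p6, chr6:5496279-5496398, minus strand, 5′ to 3′).
Pdk4 upstream: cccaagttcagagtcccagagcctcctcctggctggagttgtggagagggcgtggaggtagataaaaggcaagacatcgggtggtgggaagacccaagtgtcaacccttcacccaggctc

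Mlycd, malonyl-CoA decarboxylase, removes the inhibitor of the entry enzyme Cpt1a. It had 90.4, 104 and 113 CPM in KO and 108, 133 and 158 CPM in WT, with 8 of 10 KO mice below the lowest WT mouse. Mlycd fell by 0.36 on the log2 scale with TMM factors (SE 0.069, edgeR adjusted p = 1.26e-04), against 0.11 with library size alone (adjusted p = 0.177). The coactivator genes of oxidative metabolism, Ppargc1a and Ppargc1b, were among the least abundant members. Ppargc1a had 4.82, 7.71 and 13.1 CPM in KO and 5.32, 9.53 and 20.3 CPM in WT, and was not called (-0.45 ± 0.21, edgeR adjusted p = 0.0676; 0.0061 with library size alone). It was called lower without KO_402 (-0.57, adjusted p = 0.0190), WT_406 (-0.53, adjusted p = 0.0273) or WT_408 (-0.50, adjusted p = 0.0472). Ppargc1b had 2.75, 3.77 and 6.68 CPM in KO and 4.35, 5.61 and 7.004 CPM in WT, with a log2 fold change of -0.48 ± 0.15 with TMM factors (edgeR adjusted p = 0.00866) and -0.019 with library size alone (adjusted p = 0.916).

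**Figure D4:**
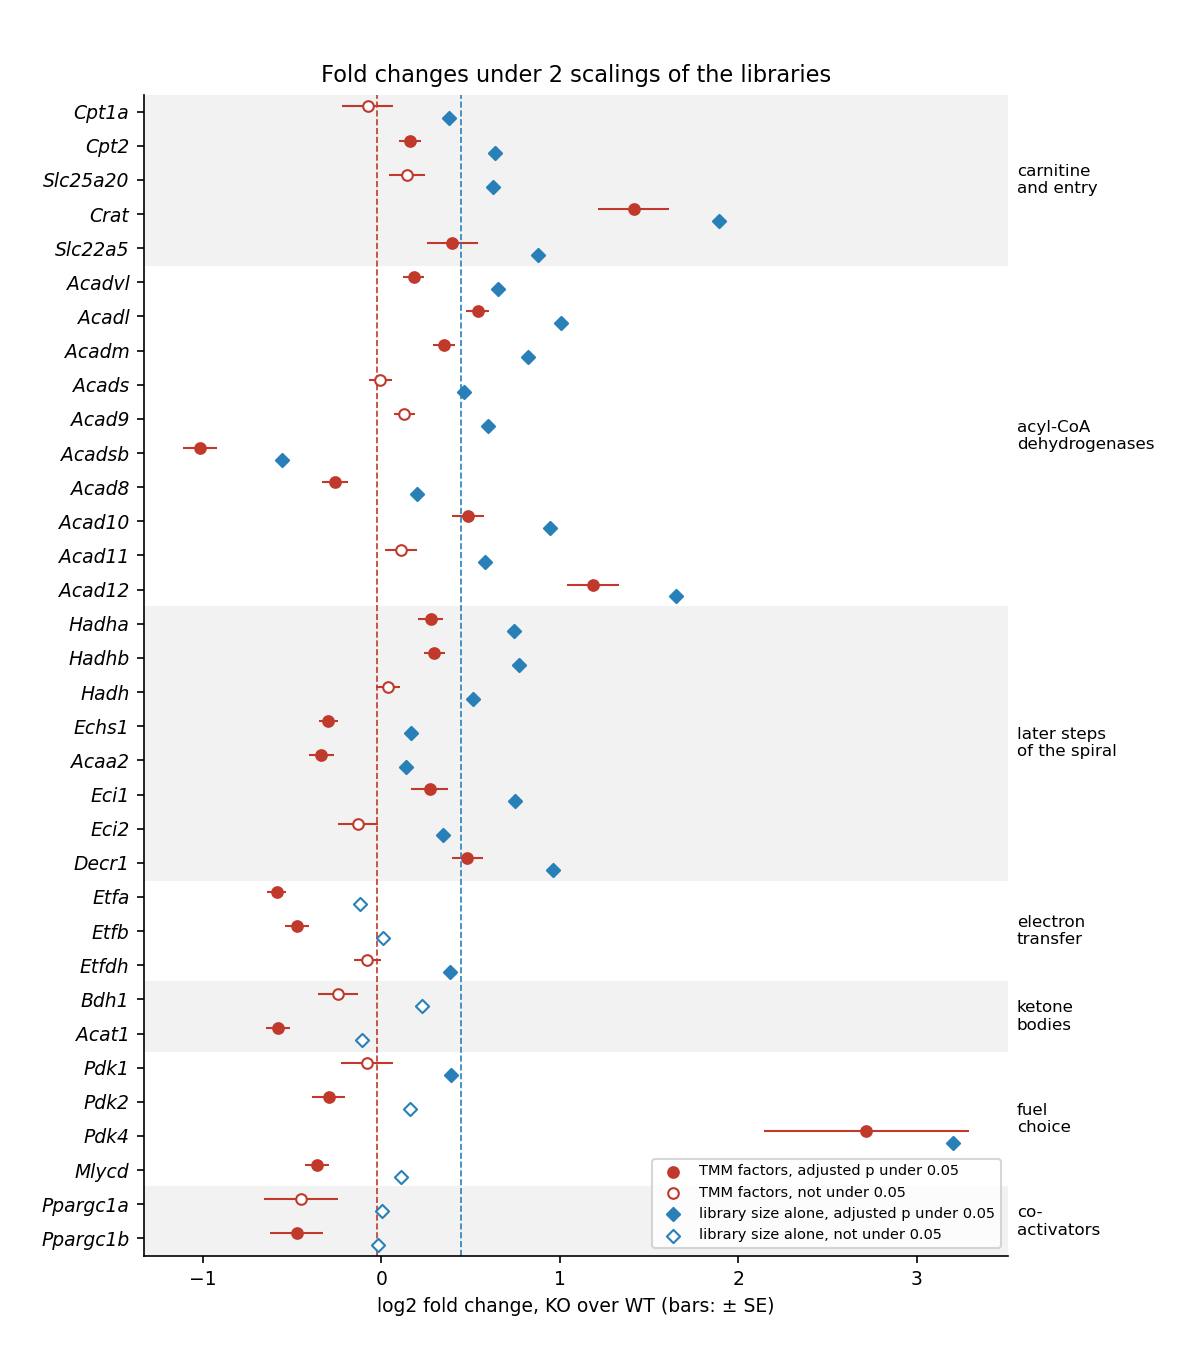
Log2 fold change of each member, KO over WT, with TMM factors (circles, bars ± SE) and with library size alone (diamonds), filled where the adjusted p is under 0.05; dashed lines mark the median of all tested genes under each scaling, -0.025 and 0.44. Of the 10 members called lower with TMM factors, 1 (Acadsb) is also called lower with library size alone, while all 13 called higher are called higher under both. Library size alone raises the all-gene median by 0.47, which favours calls higher, so the 13 were not put to a test by it.

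Mice differed in ways that cut across members. In the WT group WT_427 had the highest level of 20 of the 34 members, and WT_389 had the lowest of 10. In the KO group KO_391 had the highest level of 9 members, and KO_416 the highest of 8 and the lowest of 7. WT mice varied more than KO mice in several entry and spiral genes: the coefficient of variation of Cpt1a was 13.6% in KO and 32.2% in WT, that of Decr1 5.50% in KO and 18.9% in WT, and that of Cpt2 4.31% in KO and 11.9% in WT. Other members were the reverse, among them Acadsb and Acad8, with 16.5% in KO and 4.08% in WT for Acad8. Pdk1 (28.0% in KO and 16.1% in WT), Pdk2 (19.0% and 10.1%) and Ppargc1b (30.6% and 15.3%) also varied more in KO. So did Acad10 (16.2% in KO and 10.7% in WT) and Etfa (7.93% and 4.31%).

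Promoter sequence was available for 28 of the 34 members, and the 250 bases upstream of each RefSeq start on GRCm38.p6 were searched on both strands for the letters of 3 motifs. The PPAR response element, read as 2 copies of AGGNCA with any 1 base between them, was found in 0 of the 28 members and 0.4% of 27025 genes. The estrogen-related receptor element TCAAGGTCA was found in 0 of 28 members and 0.422% of genes. At such low shares 0 matches in 28 members were likely in any case, so neither search can set the members apart from other genes. Sequence beyond the 250 bases was not searched. The nuclear receptor core AGGTCA, which the letters of the estrogen-related receptor element contain, was found in 4 of 28 members (14.3%) and in 15.8% of all genes, so the share in the members was near that of all genes. The 4 matches, in capitals on the gene's own strand and read as TGACCT where the match is on the other strand, are shown because Acadm and Acadvl rose, Echs1 fell with TMM factors (and was higher with library size alone) and Cpt1a was not called. They lie 249, 87, 94 and 83 bases upstream of the RefSeq starts of Acadm, Acadvl, Cpt1a and Echs1 (RefSeq, GRCm38.p6, 5′ to 3′).
Acadm, chr3:153944857-153944893, minus strand: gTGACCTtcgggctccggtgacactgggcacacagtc
Acadvl, chr11:70015480-70015545, minus strand: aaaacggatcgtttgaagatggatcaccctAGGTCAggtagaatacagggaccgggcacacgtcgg
Cpt1a, chr19:3323177-3323242, plus strand: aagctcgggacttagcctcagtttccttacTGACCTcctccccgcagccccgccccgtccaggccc
Echs1, chr7:140116469-140116534, minus strand: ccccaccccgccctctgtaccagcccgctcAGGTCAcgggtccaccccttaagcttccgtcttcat

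Related genes outside the members give the surroundings of these values. Each list is described by counts and its median beside the background of 28.2% higher and 31.0% lower. The lists were chosen with earlier results of these data known, so their counts and medians are descriptions and carry no test. Among 17 known PPAR-alpha targets outside the mitochondrial pathway, 14 were called higher and 2 lower with TMM factors (16 higher and 1 not called with library size alone), and their median was 1.97 on the log2 scale with TMM factors, against 0.016 for the members. Ehhadh, the bifunctional enzyme of peroxisomal oxidation, averaged 2481 ± 710 CPM in KO and 325 ± 80.6 CPM in WT (10 mice per group, ± SD; log2 2.93, edgeR adjusted p = 1.03e-11). The fatty acid transporter Cd36 averaged 243 ± 23.7 CPM in KO and 22.9 ± 8.69 CPM in WT (log2 3.40). Cd36 is also known in macrophages, whose markers were higher in KO, and their part in its value was not tested. Aldh3a2, a fatty aldehyde dehydrogenase, and Ucp2, a mitochondrial carrier, had log2 fold changes of 1.97 and 1.89. None of these 4 genes overlapped between the groups, but they were named for their small adjusted p, which favours genes without overlap. Over the whole list, 9 of 17 genes had all KO mice above all WT mice, against 7.1% of all tested genes.

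Other genes of mitochondrial acyl-CoA handling were mixed, with 6 of 16 tested called higher and 8 lower with TMM factors, and 9 higher and 3 lower with library size alone. The acyl-CoA thioesterase Acot2 averaged 71.3 ± 35.0 CPM in KO and 4.34 ± 1.16 CPM in WT (log2 4.05, edgeR adjusted p = 7.56e-10), a larger fold change than that of any of the 34 members. Whether Acot2 shares reads with other thioesterase genes was not tested. Acot9, a second mitochondrial thioesterase, averaged 10.1 ± 2.98 CPM in KO and 2.08 ± 0.530 CPM in WT (log2 2.27). Acsm1, a medium-chain acyl-CoA synthetase, and Echdc2 had log2 fold changes of -0.95 and -0.77 with TMM factors and were also called lower with library size alone (-0.48 and -0.31). Of 8 other ketone body genes 3 were called higher and 2 lower with TMM factors, and 5 higher and 1 lower with library size alone: the monocarboxylate transporters Slc16a7 and Slc16a1 rose by 0.90 and 0.64 on the log2 scale, Aacs, which uses acetoacetate in the cytosol, by 0.69, and Bdh2 fell by 1.34.

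Among 8 further genes tied to ETF, which include dehydrogenases of amino acids and choline metabolites that pass electrons to it, 6 were called lower and 2 not called, with a median log2 fold change of -0.57 with TMM factors and -0.11 with library size alone, where 1 was called higher and 3 lower. Dmgdh, dimethylglycine dehydrogenase, averaged 263 ± 55.5 CPM in KO and 536 ± 91.3 CPM in WT, and Sardh, sarcosine dehydrogenase, 398 ± 127 CPM in KO and 763 ± 76.7 CPM in WT (log2 -1.03 and -0.94). Gcdh, glutaryl-CoA dehydrogenase, and Ivd, isovaleryl-CoA dehydrogenase, had log2 fold changes of -0.69 and -0.67 with TMM factors, and -0.23 and -0.22 with library size alone, where Ivd was not called.

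In the pyruvate dehydrogenase list 3 of 10 tested genes were called higher and 3 lower with TMM factors, and 8 were called higher and 2 not called with library size alone. Dlat, the acetyltransferase core, averaged 58.4 ± 6.32 CPM in KO and 40.1 ± 6.08 CPM in WT (log2 0.54, edgeR adjusted p = 7.17e-06), Pdhx, its binding protein, had a log2 fold change of 0.37, and Pdp1, the phosphatase that opposes the Pdk kinases, 0.90 at 1.89 ± 0.611 CPM in KO and 1.00 ± 0.297 CPM in WT. Mpc2, of the mitochondrial pyruvate carrier, had a log2 fold change of -0.32 with TMM factors and 0.15 with library size alone. Among 13 regulators of oxidation 1 was called higher and 6 lower with TMM factors (median log2 fold change -0.41), and 6 higher and 1 lower with library size alone (median 0.055). Acacb, the acetyl-CoA carboxylase that makes the malonyl-CoA inhibiting Cpt1a, averaged 246 ± 41.3 CPM in KO and 75.4 ± 17.6 CPM in WT (log2 1.70, edgeR adjusted p = 5.05e-10), opposite in direction to Mlycd with TMM factors but not with library size alone. The deacetylase gene Sirt3 had a log2 fold change of -0.62 (-0.16 with library size alone), Med1 -0.56 (-0.092) and the nuclear receptor gene Esrra -0.42 (0.050).

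Mitochondrial housekeeping genes were called higher for 3 of 19 and lower for 13, with a median of -0.25 with TMM factors, and 12 were called higher and 7 not called with library size alone (median 0.22). Citrate synthase, Cs, averaged 209 ± 33.7 CPM in KO and 122 ± 14.4 CPM in WT (log2 0.78), with no overlap. The respiratory chain genes Sdhb, Cox4i1 and Ndufv1 had log2 fold changes of -0.58, -0.48 and -0.48 with TMM factors and -0.11, -0.011 and -0.0067 with library size alone, next to -0.59 and -0.12 for Etfa.

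**Figure D5:**
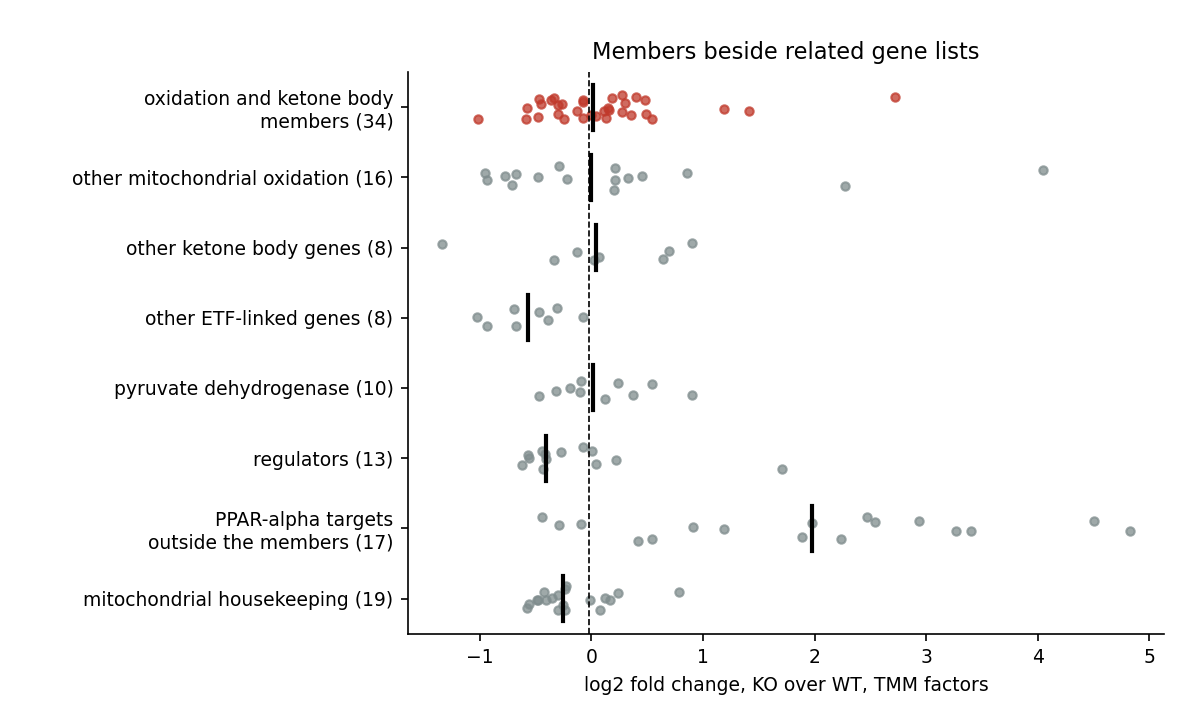
Each point is the log2 fold change of a gene, KO over WT with TMM factors, in the members (top) and in 7 related lists, with a bar at each list's median and a dashed line at the median of all tested genes, -0.025. The PPAR-alpha targets outside the members have a median of 1.97, the members of 0.016 and the other ETF-linked genes of -0.57. The lists were chosen with earlier results of these data known, so the medians carry no test.

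The authors' deposited table of a ROTS test (reproducibility-optimized test statistic) holds all 34 members, with 8 higher and 6 lower at a false discovery rate (FDR) under 0.05, where 40.9% of its 12820 genes pass, 22.1% higher and 18.9% lower. In the authors' deposited table Pdk4 has a log2 fold change of 2.76, Crat of 1.39, Acad12 of 1.08 and Acadsb of -1.03. Several members called by edgeR do not pass the ROTS FDR. Of those called higher, these are Cpt2 (ROTS FDR 0.222), Acadvl (0.185), Eci1 (0.0896), Hadha (0.0779) and Hadhb (0.0681). Of those called lower, they are Acad8 (ROTS FDR 0.0943), Pdk2 (0.0712), Echs1 (0.0704) and Acaa2 (0.0509). The authors' deposited gene ontology table gives fatty acid beta-oxidation (61 annotated genes) an FDR of 0.625 and fatty acid oxidation (84 annotated genes) an FDR of 0.258, and acyl-CoA metabolic process (73 annotated genes) an FDR of 1.2e-06.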

How the data were processed

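Liver RNA of 20 mice was sequenced as paired fragments, and groups were taken from the genotype labels. The authors deposited raw counts per gene, in which multi-mapping fragments were not set aside (3.32% ± 1.89 of fragments in KO, 9.68% ± 3.71 in WT). They also deposited a normalized signal, and RPKM, that signal per kilobase. The signal equalled CPM scaled by TMM factors of all 20914 genes, with a largest relative deviation of 5.11e-15. CPM values given here use TMM factors of the 13670 tested genes, so the scales of CPM and RPKM are close but not the same. Per gene, the deposited ROTS results hold the log2 fold change with its p-value and FDR, and the deposited annotation gives gene length and coordinates. File headers and names give Rsubread and mm10, but HISAT2 2.0.5 and DESeq2 stand in the submitters' processing notes; whether counting used strand is not stated there, and 23 columns of sample values were not used.

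The counts were fitted with edgeR 4.0.16 in R 4.3.3: filterByExpr (minimum count 10, minimum total 15) left 13670 of 20914 genes, the genes left out held 0.0858% of fragments and 620 genes had no symbol (0.269%). TMM factors, robust quasi-likelihood F tests and Benjamini-Hochberg adjustment over all tested genes followed, and genes were called under 0.05. In simulated data with 50 changed genes per fold, the fit called 38 at 1.5-fold, 49 at 2-fold, 49 at 4-fold and 50 at 8-fold for KO against WT over 13670 genes, and 5 of 191 calls were of unchanged genes. The simulation left most genes unchanged and changed as many up as down, whereas 59.2% of genes were called in the real data. It also held no shift like that of the TMM factors (1.18 in KO, 0.851 in WT), so its rates do not carry over to these data. Permutation tests used scipy 1.17.1. Replicate libraries differed beyond sampling noise in all 90 pairs within a genotype (chi-square 10.6 to 204 for each degree of freedom). The alternatives were library size alone, DESeq2 size factors, upper-quartile factors, no filter, a stricter filter (10 or more mice with CPM of 1 or more), the DESeq2 1.42.0 test, limma 3.58.1 with voom quality weights or on log2 RPKM with pseudocounts of 0.1 and 1, shares of counts, and leaving out mice.

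The members and lists were chosen with earlier results of these data known. Every member is named; of each list, up to 4 genes with the smallest adjusted p under 0.05 are named. Sequences are from RefSeq, GRCm38.p6, and no sequence is given for members on chromosome 18.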

Additional observations from a re-analysis of the deposited data

Results flagged for a closer look

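In 8 of 74 groups of 10 mice (37 measures, each in KO and in WT) a single mouse stood apart, its gap to the nearest mouse, as a share of the group's range, exceeding Dixon's critical value, and chance flags about 1 in 20 groups. In KO these were KO_416 for Slc22a5 (60.7 CPM, next 40.1), KO_391 for Acad11 (375, next 324) and for Etfdh (290, next 240), KO_404 for Bdh1 (229.6, next 199) and KO_402 for Ppargc1a (13.1, next 9.02). In WT they were WT_427 for Hadha (467 CPM, next 385) and WT_389 for Pdk4 (40.1, next 12.3) and for the Pdk4 share of the kinase RPKM (14.97%, next 4.55%).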

How the results depend on the processing

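No paired analysis was possible because mouse numbers are not shared between the genotypes and nothing in the labels links them. Scaling by library size alone moved the counts of called members to 25 higher and 1 lower, and those of all genes to 9355 higher and 917 lower; the all-gene median moves by 0.47 by construction of that scaling. The log2 fold changes that turned positive with it were Cpt1a 0.38, Acads 0.46, Acad8 0.20, Echs1 0.17, Acaa2 0.14, Eci2 0.35, Etfb 0.0067, Etfdh 0.39, Bdh1 0.23, Pdk1 0.39, Pdk2 0.16, Mlycd 0.11 and Ppargc1a 0.0061. Acads, near 0, was also positive with DESeq2 size factors (0.010), the stricter filter (5.65e-04) and DESeq2 (0.010), and the cause was not tested. Leaving out each mouse in turn gave 11 to 14 members higher and 10 to 11 lower, and 3762 to 4180 genes higher and 3704 to 4289 lower. Log2 fold changes then ranged from -0.13 to 0.025 for Cpt1a, -0.040 to 0.039 for Acads, -0.12 to 0.019 for Pdk1 and 2.58 to 3.48 for Pdk4. The Pdk4 share difference ranged from 16.5 to 20.3 percentage points, and was 21.4 with shares of counts. Without KO_391 and WT_441, an alternative added after seeing the data, 12 members were higher and 10 lower (Eci1 then had an edgeR adjusted p of 0.0502). Cpt2 missed the threshold with no filter (edgeR adjusted p = 0.0507), and Acad9 passed it with library size alone (3.28e-09), DESeq2 size factors (0.0337), the stricter filter (0.0426) and DESeq2 (0.0274). Members under 10 CPM, such as Ppargc1a and Ppargc1b, rest on the fewest fragments.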
